A study of Mus musculus with 8 samples.

Results

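The interferon-induced effector genes described here are 43 mouse genes that carry out or regulate the antiviral state, given as a list of symbols. All probe sets whose platform annotation names exactly 1 symbol, and that symbol on the list, were taken, which gave 62 probe sets for 39 genes, out of 18193 genes with such a probe set on the array. Of the other 4 listed genes, Isg15 and Tgtp1 are named by the annotation only on probe sets that carry several symbols, and Oas1g and Ifi44 are named on none. No level is given for these 4 genes. After the filter on low signal, 57 probe sets for 38 genes were tested. Oas3 did not pass that filter, and its values are given without a test.

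The Dicer knockout group is 4 samples of subcutaneous preadipocytes, precursors of fat cells that resemble fibroblasts, that received the adenovirus Ad5CMVCre-eGFP, which encodes Cre recombinase and GFP. The control group is 4 samples of the same kind of cells that received Ad5CMVeGFP, which encodes GFP without Cre. All 8 samples came from day 2 newborn mice of genotype Dicer lox/lox on the C57BL/6 background, received virus at 750 MOI (multiplicity of infection, the virus dose per cell) with 4 µg/mL polybrene, and were harvested 4 days later. Both groups were thus infected, and 0 arrays are of uninfected cells or of cells given Cre virus without floxed Dicer. The level of these genes without virus is therefore not measured, and an effect of Cre or of its virus cannot be told apart from one of Dicer loss. Samples are labelled as biological replicates, with no animal or culture named, so a p-value here reflects sample-to-sample spread, which may be technical. In whole-culture RNA, fewer cells of a kind and less RNA per cell cannot be told apart.

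Type I interferons are secreted when a cell detects viral nucleic acid, and they signal through surface receptors and the kinases Jak1 and Tyk2. Type I interferon leads to binding at interferon-stimulated response elements in promoters, through a complex that holds Stat2 and Irf9, whereas the response to interferon gamma runs largely through gamma-activated sites. The induced proteins bind foreign RNA, degrade it, deprive viruses of nucleotides, block entry or release, or mark proteins with the ubiquitin-like Isg15. Fibroblast-like cells respond to both kinds of interferon.

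The promoters of the effector genes are shown because their motifs are what these genes are known to share. RefSeq promoter windows (GRCm38.p6, from 250 bases before to 50 after an annotated start) were found for 35 of the 43 listed genes. The core of the interferon-stimulated response element, searched on either strand as GAAA, any 2 bases and GAAA again, was in a window of 19 of these 35 genes (54.3%), whereas 3.99% of all 27025 genes with a window had it. The gamma-activated site, TTCNNNGAA on either strand, was in a window of 12 of the 35 (34.3%), as it was for 9.55% of all genes. Counting windows instead, 47.6% of the 42 windows of listed genes held the first motif and 28.6% the second, compared with 3.44% and 8.30% of all 32851 windows. Matches of both motifs can overlap, as they do in Bst2. A match is a run of letters in this window and was not tested as a binding site. The 150 bases before the start are printed for 5 genes, 5′ to 3′ in the direction of the gene, with motif matches in capitals.
Ifit1, chr19:34640739-34640888, plus strand: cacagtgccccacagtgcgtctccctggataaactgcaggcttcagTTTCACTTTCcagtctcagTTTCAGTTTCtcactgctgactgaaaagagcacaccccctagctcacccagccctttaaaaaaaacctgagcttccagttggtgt
Rsad2, chr12:26456453-26456602, minus strand: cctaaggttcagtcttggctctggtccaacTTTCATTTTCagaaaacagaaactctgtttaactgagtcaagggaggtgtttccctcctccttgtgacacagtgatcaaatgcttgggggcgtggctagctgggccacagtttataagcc
Gbp7, chr3:142530186-142530335, plus strand: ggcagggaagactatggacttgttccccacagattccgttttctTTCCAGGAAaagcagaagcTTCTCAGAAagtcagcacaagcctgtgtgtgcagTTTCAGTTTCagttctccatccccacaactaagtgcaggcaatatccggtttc
Irgm2, chr11:58214827-58214976, plus strand: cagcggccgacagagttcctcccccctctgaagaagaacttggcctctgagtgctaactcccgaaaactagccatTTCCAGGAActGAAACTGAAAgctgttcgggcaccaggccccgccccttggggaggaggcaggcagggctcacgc
Irf1, chr11:53769864-53770013, plus strand: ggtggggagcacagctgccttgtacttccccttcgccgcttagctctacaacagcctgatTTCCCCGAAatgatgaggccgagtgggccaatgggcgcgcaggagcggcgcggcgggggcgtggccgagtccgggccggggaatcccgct

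In the Ifit1 promoter both capital runs are response element cores on the reverse strand, 104 and 85 bases before the start. Rsad2 has 1 such core, 120 bases before the start. Gbp7 and Irgm2 carry both motifs: Gbp7 has 2 gamma-activated sites and then 1 response element, and Irgm2 has 1 of each, 11 bases apart by their first letters. Irf1 has a gamma-activated site alone in this stretch. Among the inducible GTPases 7 of 8 genes with a window had the response element core and 4 of 8 the gamma-activated site. The 9 tested genes with the response element core alone had log2 differences between knockout and control of -0.14 to 0.78, with 7 above 0. The 6 tested genes with both motifs had -0.26 to 0.27, with 4 above 0. The 5 with the gamma-activated site alone had -0.10 to 0.21, with 3 above 0, and the 10 with neither had -0.24 to 0.45, with 5 above 0. These ranges overlap throughout, and no test was made between them. Many of the genes also lie beside each other: 27 of the 43 form 10 groups in which the next member starts within 500 kb, among them Ifit1, Ifit2 and Ifit3 on chromosome 19, Rsad2 and Cmpk2 on chromosome 12, and Gbp2, Gbp3 and Gbp7 on chromosome 3.

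The arrays gave a scaled signal for 45101 probe sets, with a median of 321.1 to 418.9. The pairing of same-numbered arrays rests on the labels' numbers and on deviations from the group means, which correlated at 0.341, 0.189, 0.199 and 0.372 in pairs 1 to 4. Some arrays of different numbers correlated too, though less. Knockout 4 with control 2 gave 0.149, knockout 3 with control 1 gave 0.134 and knockout 2 with control 4 gave 0.117. Odd-numbered arrays of both groups had a lower 18S ribosomal RNA 5′ signal (5905.9 to 14007.2) than even-numbered ones (30583.9 to 43029.9), a split that both groups share equally. The ratio of 3′ to 5′ Gapdh signal was 0.959 to 1.03 in knockout arrays and 0.956 to 1.13 in control arrays. The targeted transcript itself did not differ beyond the spread between arrays: the brighter Dicer1 probe set read 1110.1 to 1403.8 in knockout arrays and 1140.7 to 2113.7 in control arrays (exact two-sided permutation p = 0.714, where 0.0286 is the smallest possible), and the dimmer one gave p = 0.457 by the same exact permutation test. Whether either lies inside the deleted segment is not stated in the labels, so they may not check the deletion. All 11 preadipocyte markers passed the filter on low signal. Their summed signal was 296669.2 to 346531.2 in knockout arrays and 312780.7 to 374804.5 in control arrays, sums that the collagens dominate. One of the 11, Dlk1, a marker of undifferentiated preadipocytes, fell in the paired fit (log2 difference -0.72, lower in 4 of 4 pairs, limma paired adjusted p = 0.0436, 0.999 unpaired), and its part in the results below was not tested. The 11 macrophage and leukocyte markers summed to 4037.5 to 4617.9 in knockout arrays and to 3976.3 to 5157.2 in control arrays. Of these 11, 4 did not pass the filter: the leukocyte antigens Ptprc and Cd52, the integrin Itgam and the macrophage gene Aif1. The 7 that passed had log2 differences of -0.37 (Cd68), -0.01 (Csf1r), -0.15 (Cd14), 0.22 (Adgre1), 0.21 (Lyz2), 0.60 (Tyrobp) and -0.19 (Fcer1g). The brightest, Cd68, read 724.3 to 1335.6 in knockout arrays and 882.1 to 1749.8 in control arrays. It was lower in 4 of 4 pairs, as were 9.47% of all genes tested. The 6 endothelial markers summed to 1737.4 to 2454.4 in knockout arrays and 1789.3 to 2590.9 in control arrays. Pecam1, Cdh5 and Tie1 did not pass the filter, and Kdr, Tek and Emcn did. Kdr read 838.8 to 1121.5 in knockout arrays and 810.8 to 1257.4 in control arrays. All 4 dendritic cell markers passed the filter and summed to 1080.1 to 1972.9 in knockout arrays and 784 to 2001.6 in control arrays. Of the 3 keratinocyte markers 0 passed, and their sums were 427.3 to 629.8 in knockout arrays and 267.8 to 598.2 in control arrays. The groups overlapped in all of these sums, and the part of other cells in the results was not tested.

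The effector genes did not move as a block in Dicer knockout preadipocytes. Of the 38 tested, Rsad2 alone passed an adjusted p of 0.05 with all arrays, as higher, and only when same-numbered arrays were paired. Oas2, Ifit1 and Cmpk2 had log2 differences of 0.79, 0.47 and 0.45 and did not pass in either fit with all arrays. In the unpaired fit (limma, p-values adjusted by Benjamini-Hochberg across the 27026 probe sets tested), 0 of 57 member probe sets passed an adjusted p of 0.05. In all, 0.0037% of tested probe sets passed as higher and 0% as lower. At an unadjusted p under 0.05, 7 of the 57 were higher and 0 lower, compared with 2.08% and 1.69% of all tested probe sets. In the paired fit, which adds the replicate block, 2 of 57 passed as higher, where 0.037% of all tested probe sets did, and 0 as lower, where 0.0111% did. Both belong to Rsad2, so by gene 1 of 38 passed, where 0.0754% of all genes did. By gene, 4 of 38 (10.5%) had an unadjusted unpaired p under 0.05 as higher and 0 as lower, compared with 1.99% and 1.94% of the 13259 genes tested. The paired fit gave 9 (23.7%) and 2 (5.26%), compared with 4.96% and 5.35%.

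The median log2 difference, knockout minus control, was 0.03 over the 38 genes and -0.0020 over all genes tested. It was above 0 in 22 of 38 members (57.9%) and in 49.6% of all genes. The quartiles were -0.10 and 0.17, compared with -0.11 and 0.12 for all genes. Without knockout array 4 the members' median was -0.0362 and without control array 1 it was -0.0444, so its sign rests on single arrays. The median standard error of a member was 0.15 unpaired and 0.10 paired.

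**Figure D1:**
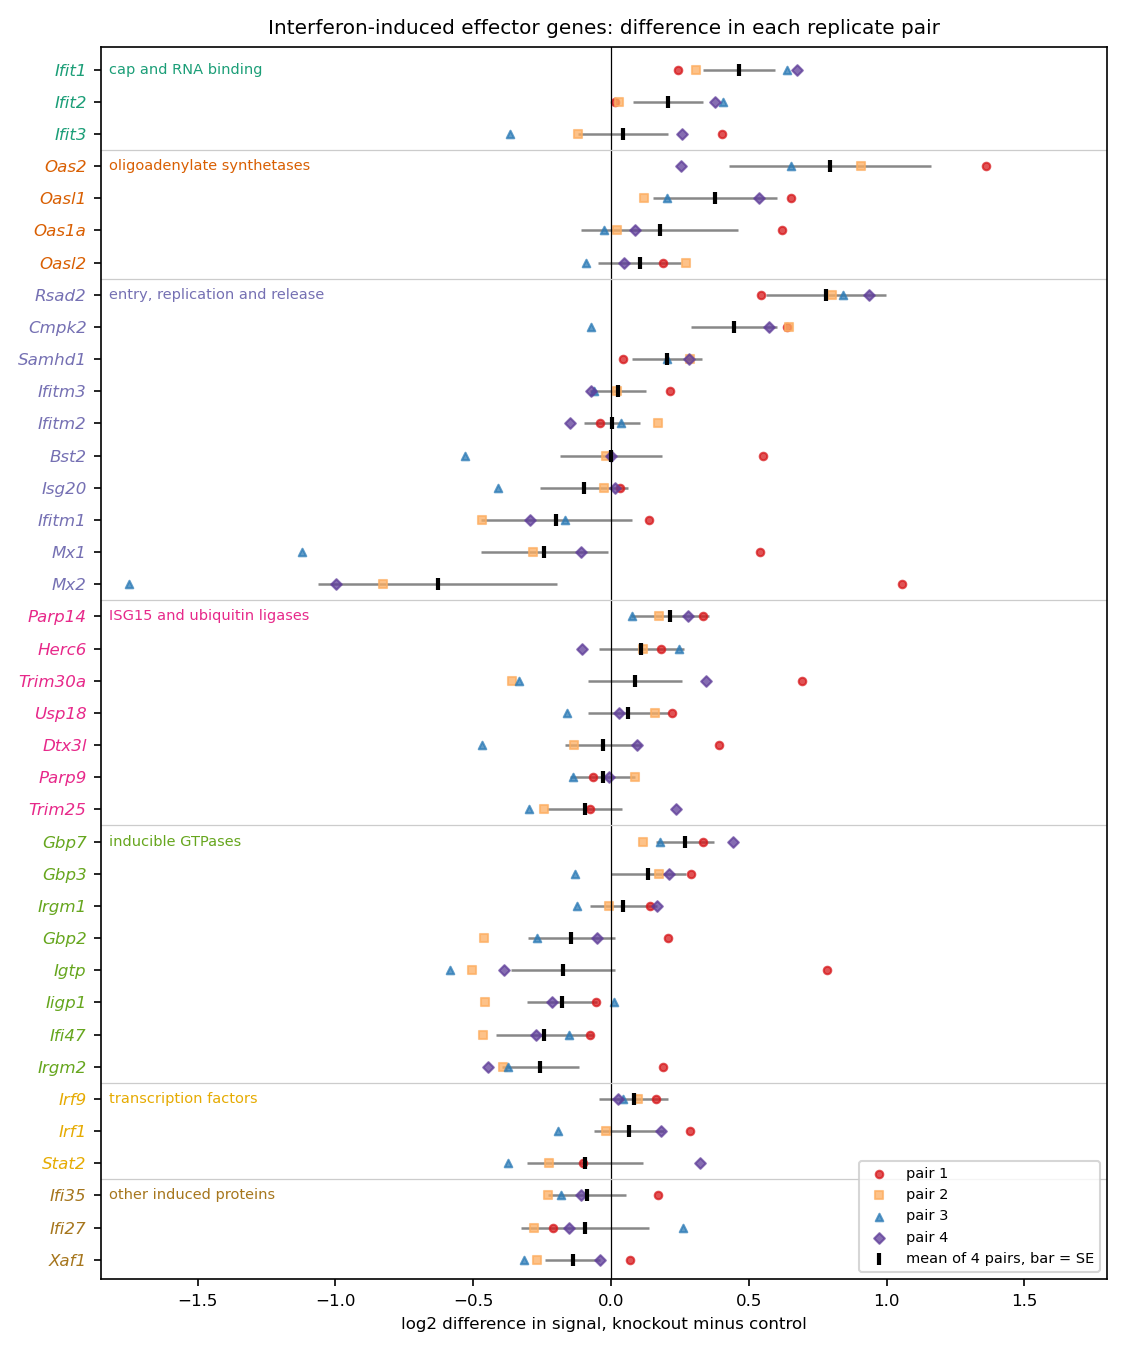
Log2 difference in array signal, knockout minus control, for the 38 tested effector genes, grouped by role (text at the left). Coloured points are the 4 replicate pairs, the black mark is their mean and the grey bar its standard error from the unpaired fit. Rsad2, Ifit1, Oas2 and Oasl1 lie right of 0 in all 4 pairs, and Igtp, Mx1 and Mx2 have pair 1 right of 0 and the other 3 pairs left of it.

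Rsad2 encodes viperin, an enzyme that turns a nucleotide into a chain terminator of viral RNA synthesis. Its brightest probe set read 4560.8, 7744.5, 9177.9 and 9033.9 on knockout arrays 1 to 4, against 3106.4, 4410.7, 5090.0 and 4684.8 on control arrays 1 to 4. Each knockout array was above the control array of its number, although knockout 1 lay below controls 3 and 4, so the groups overlapped. The mean was 7629 ± 2145 in knockout arrays and 4323 ± 858 in control arrays (SD, n = 4 each), a 1.72-fold difference on the log2(signal + 73.1) scale. Rsad2 rose in the paired fit (log2 difference 0.78, paired SE 0.09, limma adjusted p = 0.0165) and did not pass in the unpaired fit (SE 0.22, adjusted p = 0.999). A second probe set read 2928.5, 5310.4, 7373.0 and 4883.8 in knockout arrays and 1751.8, 2670.4, 3467.3 and 3060.9 in control arrays, and it too passed in the paired fit (log2 difference 0.86, limma adjusted p = 0.0165). The dimmest read 1323.4, 1813.2, 2811.7 and 2180.2 in knockout arrays and 615.3, 1254.9, 1334.4 and 1741 in control arrays, and had a log2 difference of 0.72 (SE 0.29, limma paired adjusted p = 0.127). All 3 were higher in 4 of 4 pairs. The paired call of the brightest held without pair 1 (0.86, adjusted p = 0.00693) and was lost without pair 2 (0.77, 0.0861), pair 3 (0.76, 0.139) or pair 4 (0.73, 0.141), each a fit with 3 pairs.

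Cmpk2, the mitochondrial nucleotide kinase encoded next to Rsad2, read 2411.8, 2896.6, 2091.4 and 2322.6 on knockout arrays 1 to 4, against 1522.8, 1825.1, 2202.7 and 1538.1 on control arrays 1 to 4. Knockout arrays 1, 2 and 4 were above every control array and knockout 3 was below control 3, so the groups overlapped. The log2 difference was 0.45 (SE 0.16, limma adjusted p = 0.999 unpaired and 0.317 paired). Pair differences were 0.64, 0.65, -0.07 and 0.57. Rsad2, in contrast, gave 0.54, 0.80, 0.84 and 0.94 in pairs 1 to 4. By these probe sets the neighbours parted in pair 3. A dimmer Cmpk2 probe set had a log2 difference of 0.53 (SE 0.40), with 1.57, 0.40, 0.66 and -0.50 in pairs 1 to 4. By that probe set they parted in pair 4 instead.

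The Ifit proteins bind foreign RNA, and Ifit1 in particular grips messages whose cap lacks the host's methyl mark. All 3 tested Ifit genes had differences above 0, and 0 passed the adjusted threshold in either fit with all arrays. Ifit1 read 30096.4, 31620.2, 30894.0 and 42098.7 on knockout arrays 1 to 4, against 25437.2, 25523.3, 19832.8 and 26351.1 on control arrays 1 to 4. Every knockout value exceeded every control value, which held for 1 of 38 members (2.63%) and for 1.3% of all genes tested, while 0 members and 1.22% of all genes had every knockout value below. The mean was 33677 ± 5649 in knockout arrays and 24286 ± 2997 in control arrays (SD, n = 4 each). Pair differences were 0.24, 0.31, 0.64 and 0.67. The log2 difference was 0.47 (SE 0.13, paired SE 0.09, limma adjusted p = 0.999 unpaired and 0.109 paired). In the paired fit Ifit1 passed as higher without pair 1 (0.54, limma adjusted p = 0.0480) and not without pair 2, 3 or 4 (limma adjusted p = 0.261, 0.388 and 0.312). Ifit2 read 6491.2, 7418.6, 7705.3 and 9092.2 in knockout arrays and 6421.7, 7260.9, 5800.5 and 6987.1 in control arrays, with overlap. Its log2 difference was 0.21 (SE 0.13), almost all of it in pairs 3 and 4 (0.41 and 0.38, against 0.02 and 0.03 in pairs 1 and 2). Ifit3, whose human counterpart stabilises IFIT1, had a log2 difference of 0.04 (SE 0.16), with 0.40, -0.12, -0.37 and 0.26 in pairs 1 to 4.

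The oligoadenylate synthetases sense double-stranded RNA and make the messenger that switches on RNase L. The 4 tested members all had differences above 0 with each array scaling tried, and 0 passed the threshold. Oas2 read 1161.5, 1823.0, 2032.5 and 2410.1 on knockout arrays 1 to 4, against 408.1, 937.9, 1264.1 and 2009.5 on control arrays 1 to 4. The groups overlapped widely while each pair had the knockout higher, by 1.36, 0.91, 0.66 and 0.25. The log2 difference was 0.79 (SE 0.37, paired SE 0.17, limma adjusted p = 0.999 unpaired and 0.140 paired). Leaving out control array 1 gave 0.406, and leaving out control array 4 gave 1.11. Oasl1, which in mice lacks the enzyme activity and restrains Irf7 translation, read 3116.9, 3734.2, 3946.8 and 5755.9 in knockout arrays and 1956.8, 3429.8, 3421.4 and 3942.9 in control arrays. Its groups overlapped too, while pairs 1 to 4 differed by 0.65, 0.12, 0.20 and 0.54, and its log2 difference was 0.38 (SE 0.22, limma paired adjusted p = 0.281). Leaving out control array 1 gave 0.165 for Oasl1. Oas1a had a log2 difference of 0.18 (SE 0.28), most of it from pair 1 (0.62, 0.02, -0.02 and 0.09 in pairs 1 to 4). Oasl2 had 0.10 (SE 0.15), from 0.19, 0.27, -0.09 and 0.05. Oas3, below the filter, read 138.7 to 347.4 in knockout arrays and 81.8 to 171.5 in control arrays.

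**Figure D2:**
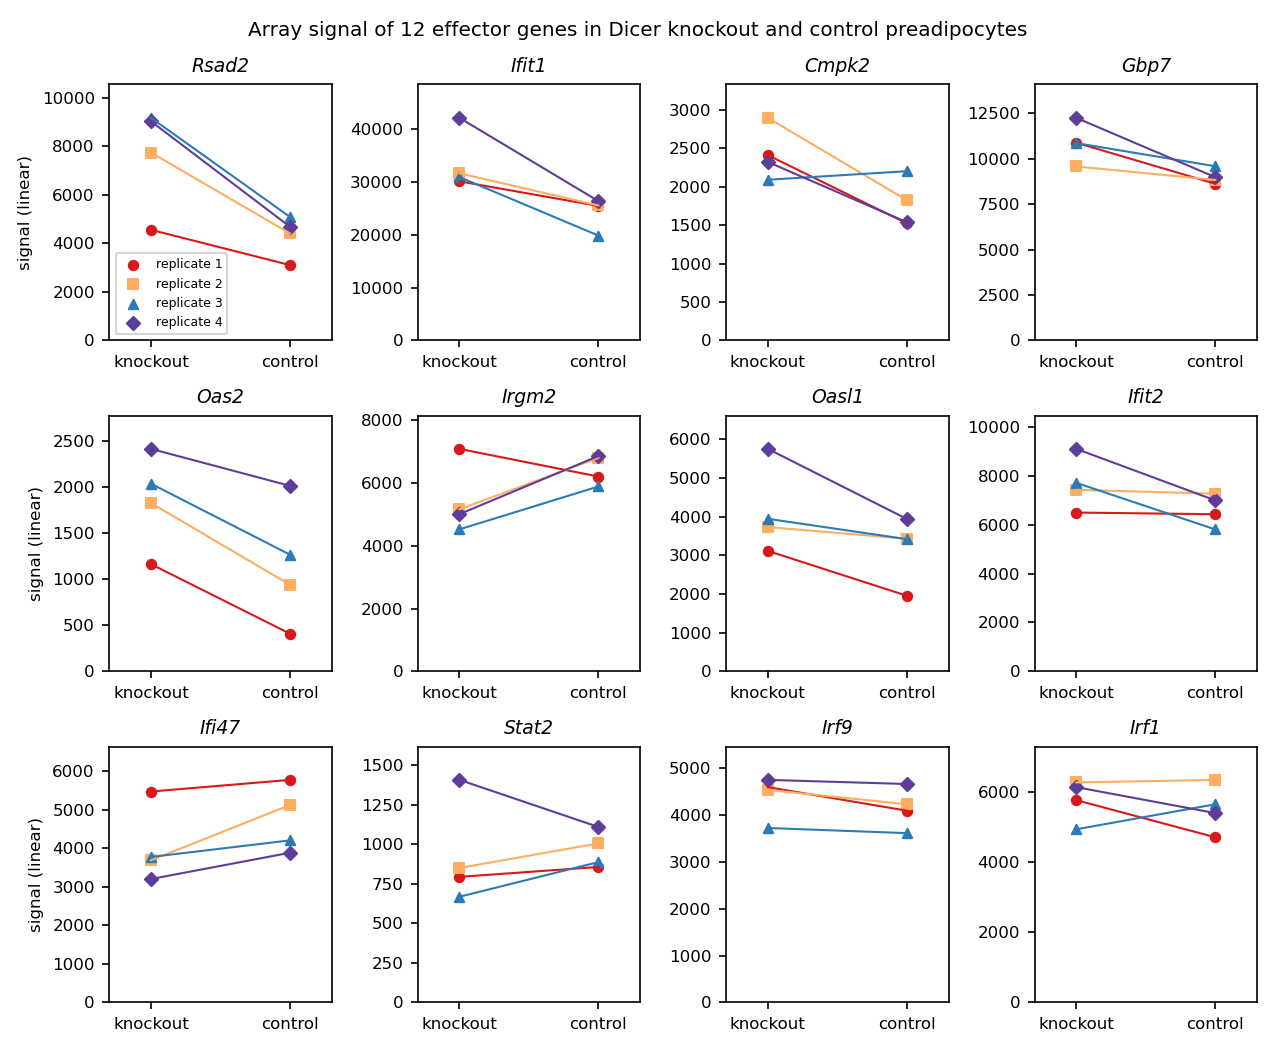
Array signal on a linear axis from 0 for 12 effector genes, knockout at the left and control at the right of each panel, with a line joining arrays of the same replicate number. The Oas2 and Rsad2 lines all fall towards the control side although the groups overlap, Ifit1 shows no overlap, and the Irgm2 line of replicate 1 runs against the other 3.

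Among the other proteins that block entry, replication or release, differences were small or ran against each other. Samhd1, which breaks down the deoxynucleotides that reverse transcription needs, had a log2 difference of 0.20 (SE 0.13), with 0.05, 0.29, 0.20 and 0.28 in pairs 1 to 4. Its 4 tested probe sets disagreed, with log2 differences of 0.20, 0.30, 0.02 and -0.51 from brightest to dimmest. Ifitm2 and Ifitm3, membrane proteins that stop viruses from fusing with endosomes, stayed close to 0. Ifitm2 had 0.0042 (SE 0.10, 95% interval -0.22 to 0.23), with pairs 1 to 4 at -0.04, 0.17, 0.04 and -0.15. Ifitm3 had 0.02 (SE 0.10, 95% interval -0.19 to 0.24), with 0.21, 0.02, -0.06 and -0.07. Bst2, or tetherin, which holds budding virus at the surface, had 0.0011 (SE 0.18), with 0.55, -0.02, -0.53 and -0.00013 in pairs 1 to 4. These 3 genes were above 0 as deposited and below 0 with each array centred on its median. Isg20, an RNA exonuclease, had -0.10 (SE 0.16), nearly all from pair 3 (0.03, -0.03, -0.41 and 0.01). Ifitm1 had -0.20 (SE 0.27), with 0.14, -0.47, -0.17 and -0.30. Mx1 and Mx2 are dynamin-like GTPases that are known to be defective in most inbred mice. Mx1 had -0.24 (SE 0.23), with 0.54, -0.28, -1.12 and -0.11 in pairs 1 to 4, and Mx2 had -0.63 (SE 0.43), with 1.06, -0.83, -1.75 and -0.999. Mx2 read 1024.5, 181.6, 191.5 and 200.7 on knockout arrays 1 to 4, against 454.8, 378.8, 815.6 and 474.1 on control arrays 1 to 4. Knockout 1 was the highest of the 8 arrays and the other 3 knockout arrays were the lowest 3; without knockout 1 its log2 difference was -1.14, with a limma adjusted p of 0.738.

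The Isg15 system and the linked ubiquitin ligases showed little difference by their brightest probe sets. Of 7 tested members 4 were above 0, and 0 passed the threshold. Usp18, which removes Isg15 from proteins and damps the type I receptor, had a log2 difference of 0.06 (SE 0.15), with 0.22, 0.16, -0.16 and 0.03 in pairs 1 to 4. Herc6, the main Isg15 ligase of mice, had 0.11 (SE 0.15), with 0.18, 0.12, 0.25 and -0.11. Its other tested probe set had 0.44 (SE 0.19), with 0.70, 0.17, 0.10 and 0.79 (limma paired adjusted p = 0.491). Below the filter, a probe set at 160.2 to 214.4 in knockout arrays and 30.6 to 124.7 in control arrays had 0.72, and another 0.10. Trim25, a ubiquitin ligase of the RNA sensor RIG-I, had -0.10 (SE 0.14), with -0.08, -0.24, -0.30 and 0.24. Its other tested probe sets had 0.0041 (SE 0.11) and 0.24 (SE 0.17), the latter with 0.58, 0.12, 0.17 and 0.08. Trim30a, which restrains inflammatory signalling in mice, had 0.09 (SE 0.17), with pairs that ran both ways (0.69, -0.36, -0.33 and 0.34). A dimmer Trim30a probe set had 0.0005 (SE 0.12). Parp9 had -0.03 (SE 0.12), with -0.07, 0.09, -0.14 and -0.01, and its partner ligase Dtx3l had -0.03 (SE 0.14), with 0.39, -0.13, -0.47 and 0.10. Their genomic neighbour Parp14, an ADP-ribosyltransferase, had 0.21 (SE 0.14), with 0.33, 0.17, 0.07 and 0.28 (limma paired adjusted p = 0.546). The other tested Dtx3l probe set had 0.07 (SE 0.21).

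The inducible GTPases, which attack the vacuoles of intracellular parasites and bacteria and respond strongly to interferon gamma, had differences on both sides of 0. Of 8 tested members 3 were above 0 and 5 below, and 0 passed the threshold in either fit with all arrays. Their median log2 difference was -0.16, and by pair it was 0.20, -0.42, -0.14 and -0.13. No test was made against the other roles. Irgm2, a regulatory member, read 7086.3, 5162.2, 4524.2 and 5009.1 on knockout arrays 1 to 4, against 6204.9, 6798.2, 5889.4 and 6859.5 on control arrays 1 to 4. Knockout arrays 2, 3 and 4 lay below every control array, and knockout 1 lay above every control array. Pair differences were 0.19, -0.39, -0.38 and -0.45, and the log2 difference was -0.26 (SE 0.14, paired SE 0.11, limma adjusted p = 0.999 unpaired and 0.506 paired). Ifi47 read 5478.6, 3693.9, 3779.3 and 3205.7 in knockout arrays and 5781.1, 5128.0, 4209.3 and 3888.7 in control arrays. It overlapped between groups and was the only one of the 38 members that was lower in 4 of 4 pairs (2.63%, against 9.47% of all genes), by -0.08, -0.47, -0.15 and -0.27, with a log2 difference of -0.24 (SE 0.18, limma paired adjusted p = 0.462).

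Igtp, the neighbour of Irgm2 on chromosome 11, followed the same pattern. It read 16500.6, 11459.3, 9569.3 and 11885.5 on knockout arrays 1 to 4, against 9562.1, 16283.1, 14392.4 and 15593.1 on control arrays 1 to 4. Knockout 1 was the highest of the 8 arrays and control 1 the lowest, whereas in pairs 2 to 4 each knockout array was lower, so the pair differences were 0.78, -0.50, -0.59 and -0.39. The log2 difference was -0.17 (SE 0.19, limma paired adjusted p = 0.838) with all pairs, and passed as lower in the paired fit without pair 1, the pair that ran the other way (-0.49, SE 0.08, limma adjusted p = 0.0462). In that fit 0.13% of all probe sets passed as lower and 0.167% as higher. Without pair 2, 3 or 4 the difference was -0.06, -0.04 or -0.10, with limma adjusted p-values of 0.986, 0.980 and 0.961. Igtp was singled out after its values were seen. Iigp1, an effector GTPase, had -0.18 (SE 0.13), with -0.06, -0.46, 0.01 and -0.21 in pairs 1 to 4. Its dimmer probe set had -0.11 (SE 0.17), with 0.21, -0.31, -0.28 and -0.07. Irgm1 had 0.04 (SE 0.12), with 0.14, -0.01, -0.12 and 0.17. Gbp2 had -0.14 (SE 0.16), with 0.21, -0.46, -0.27 and -0.05, and its other tested probe set had 0.03 (SE 0.17), with 0.08, -0.19, 0.21 and -0.0048. Gbp7 differed from these: it read 10885.4, 9577.4, 10864.3 and 12253.1 in knockout arrays and 8624.0, 8836.3, 9589.0 and 8988.4 in control arrays. Only knockout 2 and control 3 crossed, and by a small margin, and pairs 1 to 4 differed by 0.33, 0.12, 0.18 and 0.44. The log2 difference was 0.27 (SE 0.10, limma adjusted p = 0.999 unpaired and 0.320 paired), and in its other probe set, with 0.21 (SE 0.11), the groups did not overlap. Every knockout value was above every control value in 2 of 57 member probe sets and in 378 of all 27026 tested. Gbp3, between Gbp2 and Gbp7 on chromosome 3, had 0.14 (SE 0.14), with 0.29, 0.17, -0.13 and 0.21.

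The transcription factors that drive the other members did not differ beyond their spread. Stat2 read 793.4, 849.5, 667.7 and 1406.1 on knockout arrays 1 to 4, against 855.8, 1005.0, 886.7 and 1108.5 on control arrays 1 to 4. Array 4 was the highest of each group, pairs 1 to 4 differed by -0.10, -0.22, -0.37 and 0.32, and the log2 difference was -0.09 (SE 0.21, limma adjusted p = 0.999). The other tested Stat2 probe set gave 0.07 (SE 0.31), with 0.73, -0.22, -0.79 and 0.56. In that probe set control 2 was the highest control array. Irf9, the DNA-binding subunit of the type I complex, read 4597.7, 4539.0, 3725.7 and 4753.3 in knockout arrays and 4095.8, 4233.1, 3615.7 and 4665.1 in control arrays. Its 4 pairs were all above 0 but small (0.16, 0.10, 0.04 and 0.03), and the log2 difference was 0.08 (SE 0.12, 95% interval -0.19 to 0.35). Irf1, which interferon gamma is known to induce, read 5770.8, 6276.6, 4939.7 and 6142.1 in knockout arrays and 4712.2, 6349.6, 5653.9 and 5402.1 in control arrays. These overlapped almost fully, and pairs 1 to 4 differed by 0.29, -0.02, -0.19 and 0.18 (log2 difference 0.07, SE 0.13, 95% interval -0.21 to 0.34). Of the remaining induced proteins, Ifi27 had a log2 difference of -0.10 (SE 0.23), with -0.21, -0.28, 0.26 and -0.15 in pairs 1 to 4. Ifi35 had -0.09 (SE 0.14), with 0.17, -0.23, -0.18 and -0.11. Xaf1, a pro-apoptotic antagonist of XIAP, had -0.14 (SE 0.10), with 0.07, -0.27, -0.31 and -0.04. By their brightest probe sets 3 of 3 were thus below 0, and 0 passed. The dimmest Ifi35 probe set gave 0.03 (SE 0.18) and the dimmer Xaf1 one -0.0095 (SE 0.10), while the other probe sets of Ifi27 and Ifi35 were also below 0.

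The members' median varied more between replicate pairs than it differed from 0 on average. The median log2 difference over the 38 genes was 0.21 in pair 1, -0.01 in pair 2, -0.13 in pair 3 and 0.04 in pair 4, while over all 13259 genes it was 0.03, -0.02, -0.04 and 0.0055. In pair 1, 31 of 38 members (81.6%) were above 0, against 54.8% of all genes, and in pair 3, 13 of 38 (34.2%) were, against 45.4%. A difference above 0 in pair 1 together with one below 0 in pair 3 was seen in 21 members (55.3%) and in 30.6% of all genes. The reverse was seen in 3 members (7.89%) and in 21.2% of all genes. Higher in 4 of 4 pairs were 9 members (23.7%), namely Ifit1, Ifit2, Oas2, Oasl1, Rsad2, Samhd1, Parp14, Gbp7 and Irf9, as were 8.64% of all genes.

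**Figure D3:**
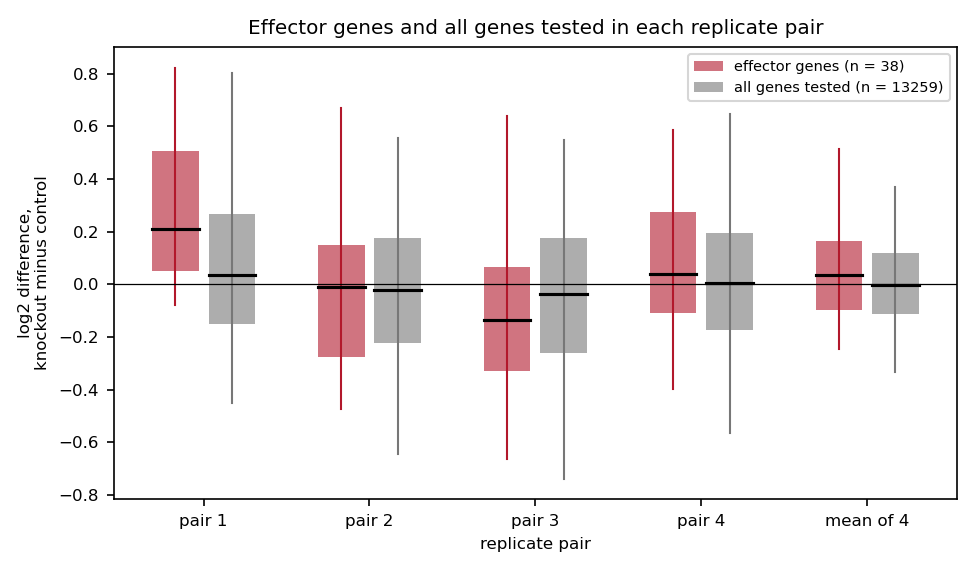
Log2 difference, knockout minus control, in each replicate pair and as the mean of the 4 pairs, for the 38 effector genes (red) and all 13259 genes tested (grey). Boxes span the quartiles, black lines are medians and thin lines run from the 5th to the 95th percentile. The red median is 0.21 in pair 1 and -0.13 in pair 3, and the grey medians stay between -0.04 and 0.03.

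Array by array, each gene's log2 signal minus its mean over the 8 arrays gave a members' median of 0.10, -0.05, -0.19 and 0.14 on knockout arrays 1 to 4 and of -0.10, -0.02, -0.03 and 0.12 on control arrays 1 to 4. Knockout 4 and control 4 were the highest 2 arrays, and knockout 3 and control 1 the lowest 2. The groups overlapped over nearly the whole range. Within the odd-numbered replicates the median log2 difference was 0.0284 and within the even-numbered ones 0.0258, with 0 members past the threshold in either. The genes did not share a single order of arrays: knockout 1 was high for Mx2, Igtp, Irgm2 and Gbp2 and low for Rsad2, Oas2 and Oasl1 among the knockout arrays.

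**Figure D4:**
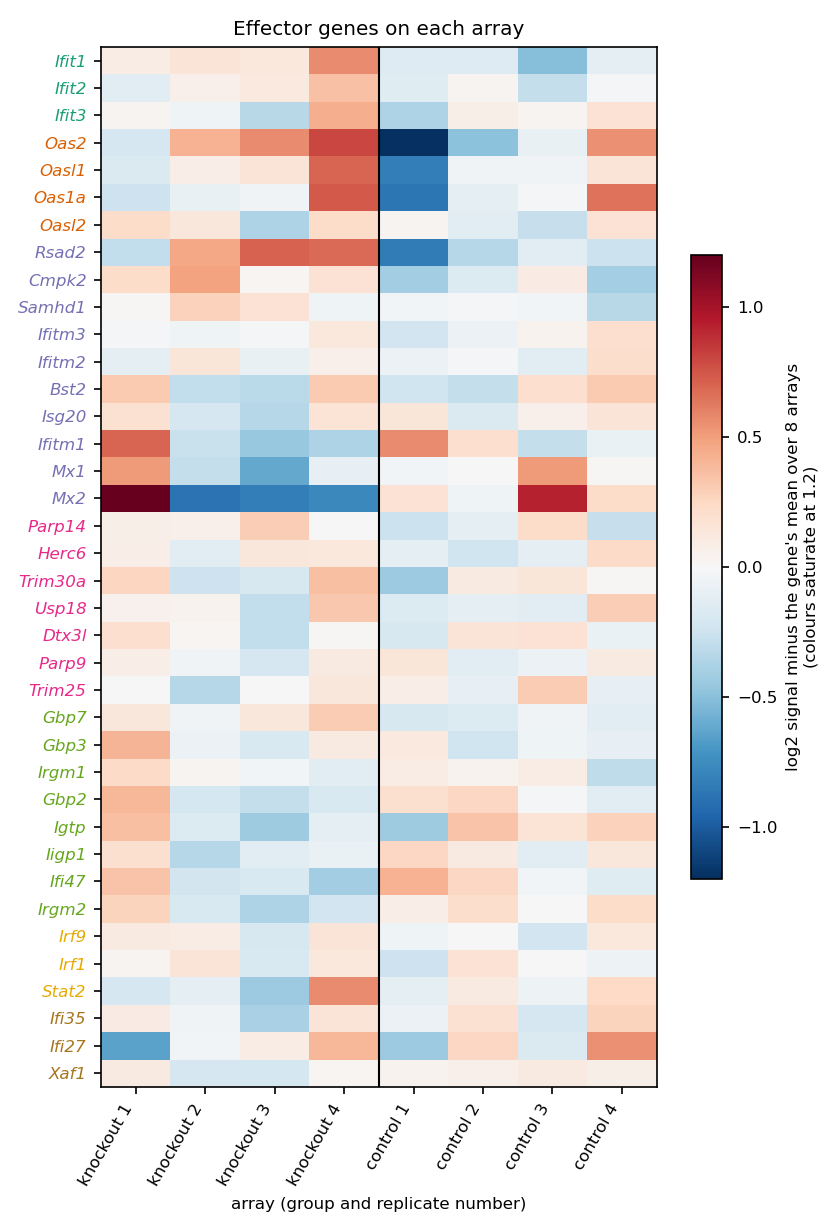
Log2 signal of the 38 tested effector genes on each of the 8 arrays, minus the gene's mean over the arrays, with the 4 knockout arrays left of the line and the 4 control arrays right of it. Rows are ordered by role and colours saturate at 1.2. Oas2, Oasl1, Oas1a and Rsad2 are lowest on control 1, and the GTPases Gbp2, Igtp and Irgm2 are high on knockout 1 and low on the other knockout arrays.

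Of the 39 other genes of the interferon pathway that were listed (ligands, receptors, kinases, factors, sensors and inhibitors), 36 had a probe set with 1 symbol and 33 were tested. In both fits 0 passed the threshold, and at an unadjusted unpaired p under 0.05 there were 3 of 33 higher and 0 lower, beside 1.99% and 1.94% of all genes tested. The median log2 difference was -0.0055, with 15 of 33 above 0. Ifih1, the double-stranded RNA sensor MDA5, read 5619.1, 6834.7, 7327.6 and 9607.4 on knockout arrays 1 to 4, against 3956.7, 5563.7, 4833.1 and 5209.6 on control arrays 1 to 4. Every knockout value exceeded every control value (log2 difference 0.56, SE 0.16, limma adjusted p = 0.999 unpaired and 0.0925 paired). That held for 1 of the 33 pathway genes and for 1.3% of all genes tested. Ikbke, a kinase that activates Irf3, had 0.95 (SE 0.35) with pair 1 at -0.59. It was dim, at 279.4 to 709.9 in knockout arrays and 107.5 to 456.8 in control arrays. Zbp1, a sensor of nucleic acids in the Z form, had 0.42 (SE 0.19) with pair 3 at -0.04. Upstream of the effectors, Ifnb1, the gene of interferon beta, read 265.2 to 392.9 in knockout arrays and 266.6 to 385.7 in control arrays (log2 difference -0.01, SE 0.23). These readings lie near the array medians over all probe sets, 321.1 to 418.9, so they do not show that Ifnb1 was expressed. Ifna2, Ifna4 and Ifng did not pass the filter on low signal. The receptor chain gene Ifnar1 gave -0.05 (SE 0.15) and Ifngr1 gave 0.07 (SE 0.12). Irf7, the factor that amplifies type I responses, gave 0.25 (SE 0.24).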

How the data were processed

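Total RNA of 8 samples was measured on 1 Affymetrix array each. The submitters' processing notes name GCOS 1.3 and MAS5. The authors deposited a linear signal intensity for each probe set, whose 2% trimmed mean was 1500 on each of the 8 arrays; no other normalization is stated in the labels. Differences were taken on log2(signal + 73.1), with the 20th percentile of all values as pseudocount, which understates the change of dim genes. Of 45101 probe sets, 64 array controls were left out, and tests covered the 27026 in the upper 60% of mean log2 signal. For each of 13259 genes, the brightest of its tested single-symbol probe sets stands for the gene. The annotation gave 1 symbol for 34945 probe sets, several for 932 and none for 9160. RefSeq changed 0 of the 62 member symbols. Probe sets ending in _s_at or _x_at, such as those of Trim25 and Ifi35, can also bind related transcripts.

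Knockout was compared with control with limma 3.58.1 in R 4.3.3 (lmFit, then eBayes with trend; two-sided p, adjusted by Benjamini-Hochberg across every tested probe set; threshold 0.05). A log2 difference is knockout minus control, and SE is that of the unpaired fit unless called paired. The paired fit adds the replicate number as a block. Same-numbered samples were treated as pairs because deviations from the group means correlated above 0.1 in all 4 same-numbered pairs. Some different-numbered arrays also passed 0.1, at up to 0.149, so this limit alone does not single out the pairs. What a shared number means is not stated in the labels. Motifs were searched with Python 3.11.15 and figures drawn with matplotlib 3.10.9. The fit was tested on simulated data. The number of arrays limits the precision.

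The members, roles, lists and tests were chosen with earlier results of these data known. Named with array values were the 8 members with the smallest p in the unpaired fit, the 8 in the paired fit, and Stat2, Irf9 and Irf1. Every other tested member is given with its log2 difference. Of the pathway list, genes with an unadjusted p under 0.05 were named, and some receptors, ligands and Irf7 beside them. Igtp, Mx2 and the extra probe sets were added after their values were seen.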

Additional observations from a re-analysis of the deposited data

Results flagged for a closer look

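Within each group of 4 arrays, a gene was set aside when its highest or lowest array stood apart from the other 3 beyond the critical value of Dixon's test on the log2 scale. This was so in 10 of 76 groups of tested effector genes (13.2%), where chance gives about 1 in 20 and 5.47% of the groups of all genes tested met the same rule. Genes on the same arrays are not independent, and no test was made of this difference. In the knockout group, Ifit1 read 42098.7 on array 4, against 30096.4 to 31620.2 on the other 3. Mx2 read 1024.5 on array 1 (others 181.6 to 200.7), Ifitm1 1185.1 on array 1 (others 491 to 568.7) and Gbp2 7816.1 on array 1 (others 4831.9 to 5209.2). Oasl2 read 7111.5 on array 3, below 10103.7 to 10765.8 on the others. In the control group, array 3 was low for Ifit1 at 19832.8 (others 25437.2 to 26351.1) and high for Mx1 at 1478 (others 988.5 to 1023.7). Control array 4 was low for Samhd1 at 2709.4 (others 3370.8 to 3409.9) and for Irgm1 at 7985.4 (others 10113.7 to 10470.8), and high for Usp18 at 12851 (others 9317 to 9669.6).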

How the results depend on the processing

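In the unpaired fit 0 member probe sets passed under any alternative tried, counted by probe set or by gene. With the replicate block 2 passed, both of Rsad2. Leaving out 1 pair from the block gave 0 to 4 (4 without replicate 1, namely Rsad2 with 2, Ifit1 and Igtp, with 80 probe sets passing in all there, against 13 with all pairs). The pathway list had 0 under every alternative run on it. The members' median log2 difference was 0.0338 and ranged from -0.0444 (without control replicate 1) to 0.0857 (without control replicate 4) when 1 array was left out; it was -0.0362 without knockout replicate 4. With the replicate block and 1 pair left out it ranged from -0.0283 (without replicate 1) to 0.0986. With median centring the median was -0.0281 over all genes and 0.00767 over the members. The number of genes above 0 lay between 15 and 27 in the settings in which it was counted. The brighter Dicer1 probe set ranged from -0.226 to 0.0572 with 1 array left out (0.0572 without control replicate 3) and the dimmer one from -0.499 to -0.0758; the block changed neither call.

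Rsad2 was the only member whose call changed with the block using all arrays, and its log2 difference ranged from 0.633 to 1.01 with 1 array left out. For single members, signs changed in 33 of 304 fits without 1 array and in 8 of 379 other fits, and none of these differences had passed. Median centring turned Ifitm3 (-0.00129), Ifitm2 (-0.0220) and Bst2 (-0.0251). Array weights turned Bst2 (-0.0107), Ifit3 (-0.0275) and Trim30a (-0.0275). Averaging all tested probe sets turned Trim25 (0.0485) and Dtx3l (0.0186). With 1 array left out the ranges that crossed 0 were Ifitm3 -0.0464 to 0.0968, Ifitm2 -0.0438 to 0.0746, Ifi35 -0.169 to 0.0272, Bst2 -0.104 to 0.110, Ifi27 -0.256 to 0.105 and Ifit3 -0.0948 to 0.162. Usp18 gave -0.0347 to 0.172, Irgm1 -0.0477 to 0.0971, Trim25 -0.159 to 0.00145, Parp9 -0.0803 to 0.0325 and Trim30a -0.0450 to 0.185. Irf1 gave -0.00753 to 0.138, Oas1a -0.0846 to 0.421, Dtx3l -0.101 to 0.0661, Isg20 -0.174 to 0.00195 and Stat2 -0.298 to 0.0347. The cause of these shifts was not tested.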
